A study of Mus musculus with 36 samples.

Results

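The data described here are the response of 1 kind of mouse dendritic cell, cDC1, to lipopolysaccharide (LPS), measured by RNA sequencing in 3 untreated and 3 LPS-treated libraries, which are 6 of the 36 libraries of the series, across all 53299 genes of the deposited table. The cells are labelled as bone marrow cells induced with the growth factor FLT3 ligand toward cDC1. By their labels the controls and the treated cells share this culture, and LPS is the only labelled difference. The series calls its replicates biological. It also holds cDC2 and, for both kinds of cell, treatment with the oxidized phospholipid PGPC, with alum, and with each of these together with LPS. The labels give no mouse strain or genotype, no dose, no length of treatment and no sort or gate, so the state of the response in time is unknown. Replicates are numbered 1 to 3 in cDC1. Levels are CPM, counts scaled to a common library total of the scaled library, listed for replicates 1, 2 and 3 in that order. Values after ± are standard errors (SE) for log2 fold changes and standard deviations (SD, n = 3) for levels and shares. A gene is called when its adjusted p from edgeR's quasi-likelihood test is under 0.05.

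LPS, a component of the outer membrane of Gram-negative bacteria, is sensed by TLR4 with the co-receptors CD14 and MD-2. The receptor signals from the cell surface through MyD88 to NF-kB and MAP kinases, and from endosomes through TRIF to the kinases that activate IRF3 and thereby interferon beta and its target genes. A dendritic cell that matures in this way slows the uptake of antigen, places peptide-loaded MHC and costimulatory molecules on its surface and migrates by the receptor CCR7 to lymph nodes, where it meets T cells. cDC1 are the kind that depends on the transcription factors IRF8, BATF3 and ID2 and is known for presenting antigen taken up from other cells on MHC class I.

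The 6 libraries held 1416289 to 9484976 counts, and counts in 11949 to 15648 genes. By total counts the shallowest was LPS replicate 2 and the deepest was LPS replicate 1. After scaling untreated replicate 1 was the smallest, and 3 counts there are 2.57 CPM. Ribosomal RNA genes made up 49.5 ± 16.3% of counts in untreated libraries and 20.1 ± 5.93% with LPS, without overlap (exact permutation test, two-sided p = 0.1, the smallest that 3 against 3 allows). This share moved with the treatment, and its part in the results was not tested beyond the fits that leave these genes out. Spearman correlations over the tested genes were 0.871 to 0.905 among untreated and 0.939 to 0.957 among LPS libraries. Between the groups they were 0.764 to 0.815. The label cDC1 was checked against 22 marker genes, whose summed level was 1947 to 2794 CPM in untreated cDC1 and 340 to 461 CPM in untreated cDC2. Of these genes, Irf8 and Flt3 were at 559.9 CPM or more and 272 CPM or more in each untreated library. Irf8 was the largest member of the sum, at a mean of 899 CPM. But Xcr1 was at 0, 0.379 and 0.151 CPM and Tlr3 at 0, 3.91 and 5.14 CPM, so Xcr1 and Tlr3 were at or near 0 in the untreated cells. Plasmacytoid markers also stood higher in untreated cDC1, with sums of 882 to 1099 CPM against 108 to 317 CPM in untreated cDC2. The cDC2 markers summed to 645 to 859 CPM in untreated cDC1 and 1131 to 1622 CPM in untreated cDC2. Markers of monocytes and macrophages were present too, with a summed level of 2370 to 6215 CPM untreated and 1067 to 2346 CPM with LPS. Of 15 T and NK cell genes 7 (Cd3d, Cd3g, Ncr1, Gzma, Gzmb, Prf1 and Nkg7) had no count in any of the 6 libraries and 8 had counts. Their summed level was 0.755 to 5.43 CPM untreated and 0 to 3.12 CPM with LPS.

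LPS changed 2235 of the 12463 tested genes, or 17.9%. Of these, 1067 rose (8.56% of genes tested) and 1168 fell (9.37%). The libraries of the 2 groups did not overlap for 4865 genes (39% of genes tested), and this held for 2118 of the 2235 called. The changes were large. A change of at least 4-fold was fitted for 651 of the genes that rose and 757 of those that fell, and one of at least 16-fold for 234 and 320. There were 81 called genes without a count in any untreated library and 109 without a count in any LPS library. The median log2 fold change over all tested genes was -0.12, and it was -0.02 with ribosomal RNA (CT010467.1 included) and mitochondrial genes left out. That scaling moved the share of calls that are higher from 47.7% to 55.7%. The 815 genes of 29 process lists and 9 marker lists were chosen with results of these data known, so each list is read against the shares over all genes and carries no test. Of the 666 tested genes in the process lists 326 were called, 220 higher and 106 lower.

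The count of calls rested on which libraries set the spread. With the 12 alum libraries and a cDC2 library of few counts in the fit (all 36 libraries), 597 genes were called, all of them among the 2235, and 109 of the 186 called genes followed here by name lost their call there. Without LPS replicate 1 there were 1435 calls, and without LPS replicate 2 there were 1441. Counts of calls with all 36 libraries are given with the gene groups.

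**Figure D1:**
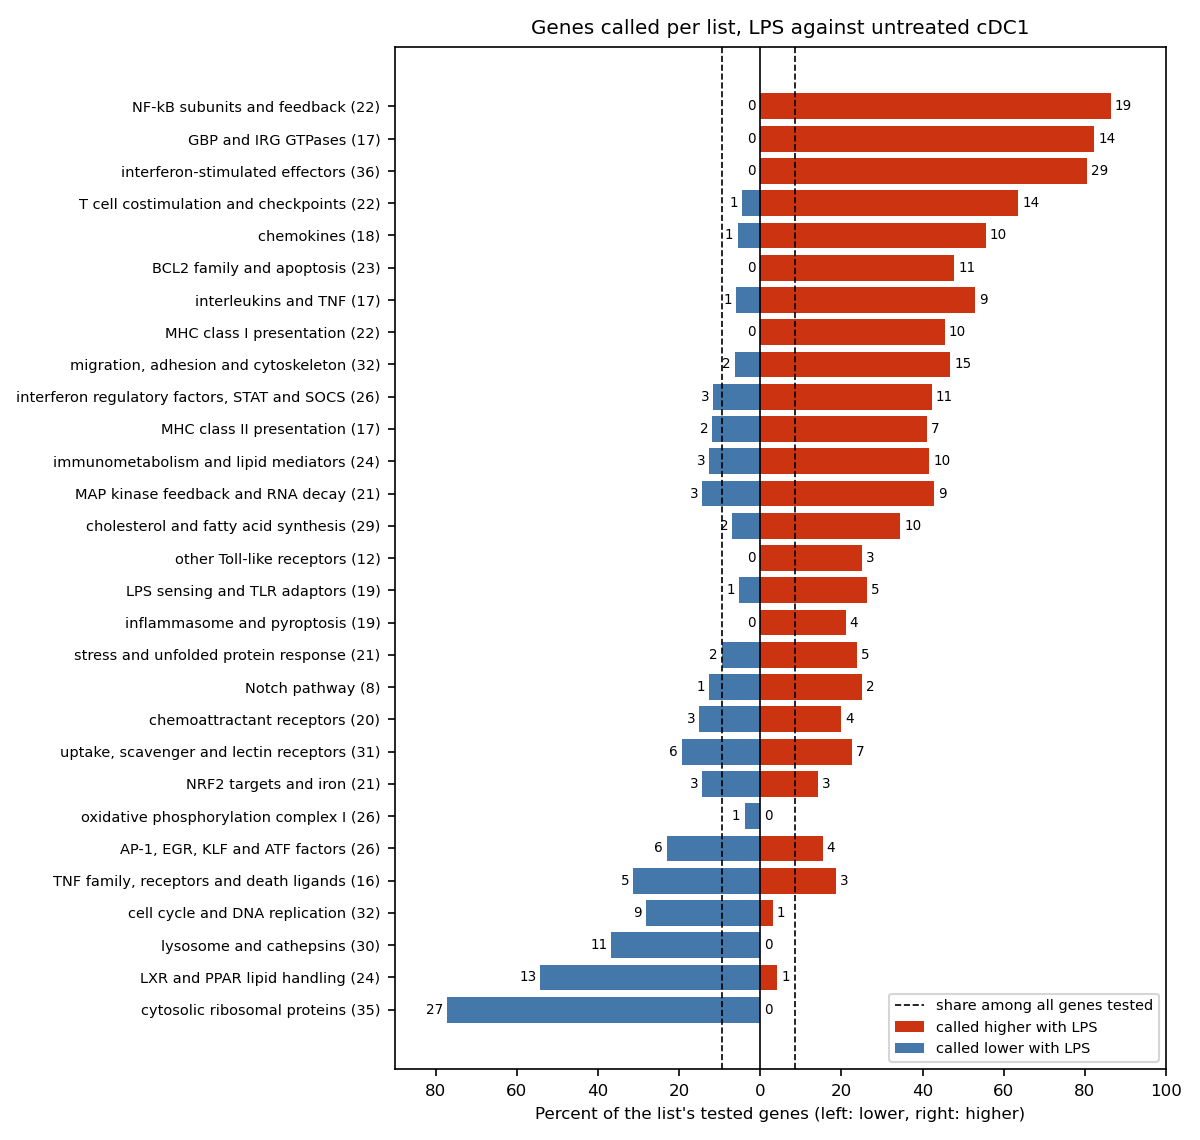
Share of the tested genes of each of 29 process lists that was called higher (red, to the right) or lower (blue, to the left) with LPS in cDC1, in percent, with the number of genes at each bar and the number tested in brackets. The dashed lines are the shares over all 12463 genes, 8.56% higher and 9.37% lower. NF-kB feedback (19 of 22), GBP and IRG GTPases (14 of 17) and interferon-stimulated effectors (29 of 36) stand farthest to the right, and cytosolic ribosomal proteins (27 of 35) farthest to the left.

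The first genes in the order of signalling are those that sense LPS. Of 19 tested genes for LPS sensing and TLR adaptors, 5 rose and 1 fell, with a median log2 fold change of 0.65. Tlr4, the LPS receptor, was at 16.3, 8.71 and 10.3 CPM without and 8.20, 6.5 and 5.58 CPM with LPS. The LPS libraries lay below the untreated ones, but the log2 fold change of -0.73 ± 0.59 was not called (adjusted p = 0.422). Cd14, which hands LPS to the receptor complex, was at 24.9, 31.2 and 31.1 CPM without LPS and at 359.6, 193 and 98.1 CPM with it. It rose by 2.89 ± 0.60 on the log2 scale (adjusted p = 0.00129), with LPS replicate 1 highest, and by 2.30 without that replicate. The kinase gene Ikbke, which acts downstream of TRIF, rose by 5.83 ± 1.00, and Traf3, an adaptor of the interferon branch, by 2.37 ± 0.36 (adjusted p = 4.88e-05). Without untreated replicate 2 Ikbke stood at 5.18, and without untreated replicate 3 at 6.44. Among 12 tested genes of the other Toll-like receptors and their chaperones 3 rose and none fell. Tlr1, which pairs with TLR2 to sense bacterial lipopeptides, was at 0, 1.77 and 6.65 CPM untreated and at 430.4, 208 and 183 CPM with LPS. It rose by 6.35 ± 0.61 (adjusted p = 3.3e-07), and by 7.65 without untreated replicate 3, which held most of the untreated signal. Tlr3, the sensor of double-stranded RNA that marks cDC1, stood at a log2 fold change of -0.45 ± 0.93 without a call. In the fit of all 36 libraries 2 of the 12 were called higher. With all 36 libraries 1 gene of the LPS sensing list was called higher, and without LPS replicate 1 or without untreated replicate 1 there were 3.

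NF-kB genes rose almost as a whole. Of 22 tested subunits and feedback regulators 19 rose and 0 fell, with a median log2 fold change of 2.53. Traf1, an adaptor of TNF receptors, was at 5.15, 10.5 and 11.9 CPM untreated and 1488, 573 and 508 CPM with LPS. Relb (chromosome 7, 19606217 to 19629438 on GRCm38), the subunit of the alternative NF-kB pathway, was at 20.6, 34.5 and 19.6 CPM untreated and 824, 632 and 572 CPM with LPS. The 3 LPS libraries lay far above the untreated ones for both genes. Traf1 rose by 6.47 ± 0.64 (adjusted p = 3.54e-07) and Relb by 4.75 ± 0.52 (adjusted p = 1.68e-06). Nfkbiz, the nuclear cofactor needed for secondary NF-kB targets, rose by 4.93 ± 0.65, and the ubiquitin ligase gene Birc3 by 3.24 ± 0.44. Tnip1 and Tnip3 encode ubiquitin-binding proteins that restrain NF-kB with A20. They rose by 3.23 ± 0.44 and 4.78 ± 0.58. Traf1 stood at 5.80 without LPS replicate 1, and 4 of the 22 genes were called with all 36 libraries.

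To show the regulatory sequence of these genes, RefSeq promoters (GRCm38.p6) were searched on both strands, in the 250 bases before each annotated start, for the common kappaB consensus, the core letters of the interferon-stimulated response element (ISRE) GAAANNGAA, and the interferon gamma-activated site (GAS) TTCNNNGAA. Overlapping matches were allowed, and a gene with several starts counts when any of them holds the letters. A kappaB match stood before 4.46% of the 27025 genes with a promoter in the table and before 5.43% of the 9428 tested genes among them. It stood before 9.06% of the 839 genes that rose and 5.31% of the 866 that fell. In the NF-kB list 8 of 18 genes had one (44.4%), and in the chemokine list 5 of 12 (41.7%). The 120 bases before the start of 4 genes named here, read in the direction of the gene, are given with kappaB matches on either strand in capitals, as examples of genes that rose and carry a match close to the start. A match is a description of the letters and shows no binding.
Tnip1 (chr11:54962941-54963060, strand -): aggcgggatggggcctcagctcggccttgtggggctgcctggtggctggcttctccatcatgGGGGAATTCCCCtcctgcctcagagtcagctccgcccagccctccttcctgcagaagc
Tnip3 (chr6:65590278-65590397, strand +): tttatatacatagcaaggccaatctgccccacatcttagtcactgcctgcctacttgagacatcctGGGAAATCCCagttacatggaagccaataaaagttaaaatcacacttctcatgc
Il6 (chr5:30012994-30013113, strand +): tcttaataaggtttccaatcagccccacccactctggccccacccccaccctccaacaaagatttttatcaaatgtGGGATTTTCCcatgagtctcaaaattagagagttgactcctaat
Cxcl10 (chr5:92348890-92349009, strand -): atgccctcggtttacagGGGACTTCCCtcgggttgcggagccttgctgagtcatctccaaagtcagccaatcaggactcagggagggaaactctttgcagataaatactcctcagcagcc

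Several cytokine transcripts rose, some from levels near 0. Of 17 tested interleukin and TNF genes 9 rose and 1 fell, with a median log2 fold change of 2.51, or 2.25 with genes absent from 1 group at the bound that the floor of 3 counts gives. With all 36 libraries 6 were called higher and 1 lower. Tnf, the inflammatory cytokine, was at 1.72, 1.39 and 4.08 CPM untreated and 249, 142 and 151 CPM with LPS. Il1b, the precursor of interleukin 1 beta, was at 0.858, 0.126 and 0.604 CPM untreated and 278, 194 and 227 CPM with LPS. Every LPS library was above every untreated library for these genes. Tnf rose by 6.15 ± 0.59 (adjusted p = 3.3e-07) and Il1b by 9.11 ± 1.02 (adjusted p = 2.1e-06). Without untreated replicate 3 the values were 6.92 for Tnf and 9.79 for Il1b, and without untreated replicate 2 Il1b stood at 8.42. Il6, the acute-phase cytokine whose promoter is printed above, had no count in any untreated library and stood at 29.0, 39.0 and 51.7 CPM with LPS. Against a floor of 3 counts per library it was at least 35.2-fold higher (adjusted p = 6.59e-06). Il10, the anti-inflammatory cytokine, was also without counts untreated, stood at 5.26, 4.72 and 6.17 CPM with LPS, and was at least 4.74-fold higher (adjusted p = 0.00601).

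The subunits of the interleukin 12 family parted. Il12b, the subunit shared with interleukin 23, stood at 0.858, 0 and 0.302 CPM untreated and 107, 48.4 and 57.0 CPM with LPS, a rise of 473-fold (counting interval 161 to 2294). Values of this kind pool the counts of a group, and the ratio of the group means was 183-fold. Il12a, its partner in interleukin 12, was at 0.858, 1.77 and 1.51 CPM untreated and 0.446, 1.18 and 0.294 CPM with LPS. The groups overlapped, and Il12a was not called (log2 fold change -1.28 ± 1.43, adjusted p = 0.578). Ebi3, the partner in interleukin 27 and 35, rose by 2.51 ± 0.51 (adjusted p = 0.00108), and by 1.83 without LPS replicate 1, but lost its call with all 36 libraries. Il27 and Ifnb1 had too few counts to be tested. Il15, which sustains NK and memory T cells, had 1.58 ± 0.70 (adjusted p = 0.121). Il4i1, a secreted amino acid oxidase that restrains T cells, was at 46.3, 15 and 32.0 CPM untreated and 3721, 2401 and 1634 CPM with LPS, and rose by 6.41 ± 0.68 (adjusted p = 9.71e-07). The exception of the list was Csf1, the growth factor of macrophages, at 118, 117 and 211 CPM untreated and 5.70, 7.09 and 20.6 CPM with LPS. It fell by 3.75 ± 0.52 on the log2 scale (adjusted p = 1.95e-05), without overlap, and its log2 fold change was -4.67 without LPS replicate 3.

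Chemokine genes rose widely too. Of 18 tested, 10 rose and 1 fell, with a median log2 fold change of 3.81, or 2.70 with genes absent from 1 group set at the bound that the floor of 3 counts gives. Ccl22 (chromosome 8, 94745590 to 94751699), which draws regulatory and helper T cells through CCR4, was at 3.43, 2.52 and 11.3 CPM untreated and 2379.6, 1347 and 1344 CPM with LPS. Ccl5, a chemokine that attracts T cells, was at 12.9, 14.4 and 13 CPM untreated and 1062, 769 and 895 CPM with LPS. Cxcl10, an interferon-induced ligand of CXCR3, was at 0, 0.884 and 0.604 CPM untreated and 54.4, 98.6 and 80.2 CPM with LPS. Each of these genes was low in all untreated and high in all LPS libraries. Ccl22 rose by 8.11 ± 0.63 (adjusted p = 2.16e-08), Ccl5 by 6.07 ± 0.50 (adjusted p = 4.3e-08) and Cxcl10 by 6.82 ± 0.91 (adjusted p = 2.15e-05). Without untreated replicate 3, the highest of the untreated libraries, Ccl22 stood at 9.22. Cxcl16, a membrane-bound chemokine, rose by 3.07 ± 0.42. Ccl3 and Ccl4, close relatives whose reads may be shared, rose by 5.93 ± 0.82 and 7.12 ± 0.89, and stood at 6.83 without untreated replicate 3 and 8.24 without untreated replicate 2. Other members stayed near 0 in both groups. Ccl17, the second ligand of CCR4, had no count untreated and 0.446, 0 and 0.294 CPM with LPS, and Cxcl9 had no count untreated and 1.25, 1.18 and 0.294 CPM with LPS. Cxcl14, a chemokine of resting tissue, went the other way, from 8.58, 14.8 and 15.7 CPM to no count in any LPS library, at least 13.4-fold lower (adjusted p = 2.97e-06). 6 of the 18 were called higher with all 36 libraries.

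**Figure D2:**
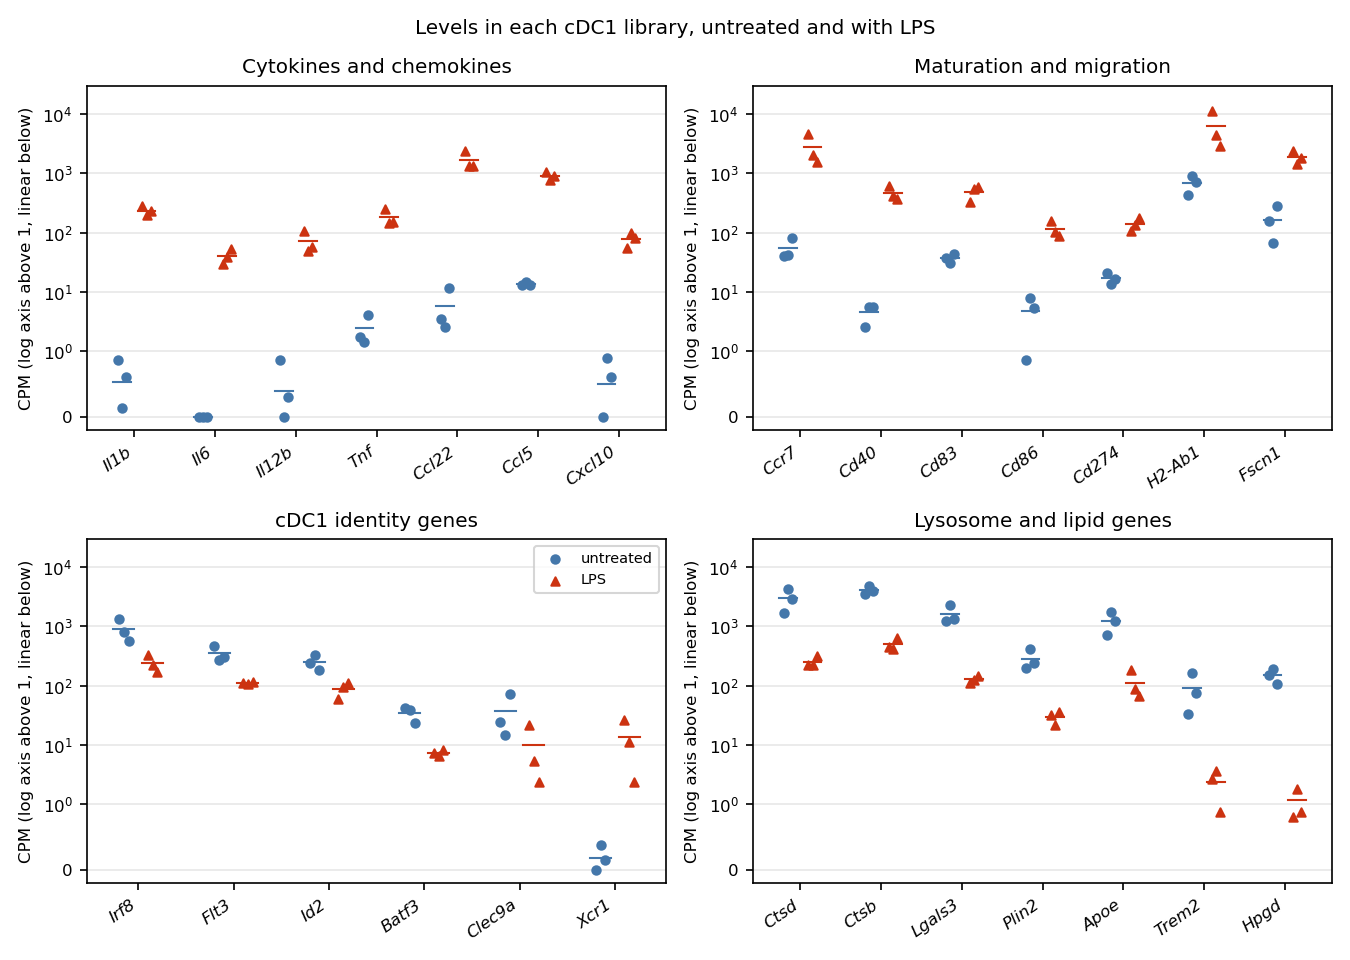
Level in CPM (log axis above 1, linear from 0 to 1) of 27 genes in each of the 3 untreated (blue circles) and 3 LPS-treated (red triangles) cDC1 libraries, with a short line at each group's mean. Ccl22, Ccl5, Cd40 and Cxcl10 separate by more than the spread within either group, Clec9a overlaps, and Xcr1 goes from under 0.4 CPM to between 2.35 and 26.5 CPM.

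Genes for contact with T cells rose widely. Of 22 tested costimulation and checkpoint genes 14 rose and 1 fell, with a median log2 fold change of 3.45 (2.70 when absent genes take their bound). Cd40, the receptor for help from T cells, was at 2.57, 5.43 and 5.59 CPM untreated and 623, 409.8 and 368 CPM with LPS. Cd86, a ligand of CD28, was at 0.858, 7.83 and 5.29 CPM untreated and 159, 100.4 and 87.8 CPM with LPS. Cd274, which encodes the checkpoint ligand PD-L1, was at 20.6, 13.5 and 16.5 CPM untreated and 105, 132 and 177 CPM with LPS. No LPS library of these genes reached down to an untreated one. Cd40 rose by 6.58 ± 0.66 (adjusted p = 3.88e-07), Cd86 by 4.45 ± 0.52 (adjusted p = 2.8e-06) and Cd274 by 3.05 ± 0.49 (adjusted p = 8.92e-05). The maturation marker gene Cd83 rose by 3.71 ± 0.42, and Cd80, the other CD28 ligand, by 5.25 ± 0.90. The adhesion genes Icam1 and Pvr rose by 4.06 ± 0.54 and 5.22 ± 0.60, and Pvr stood at 6.2 without untreated replicate 3. The ligands that activate T cells and PD-L1, which restrains them, rose in the same libraries. 9 of the 22 were called higher with all 36 libraries.

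The TNF family was mixed, with 3 of 16 tested genes higher and 5 lower and a median of -0.13 (-1.04 when absent genes take their bound). Ltb, a subunit of lymphotoxin, rose by 2.56 ± 0.48 (adjusted p = 0.000478). Tnfrsf11a, the receptor RANK for survival signals from T cells, rose by 2.46 ± 0.46, and by 1.81 without LPS replicate 3. Tnfrsf13c, the receptor for BAFF that is best known from B cells, was at 19.7, 31.6 and 26.1 CPM untreated and 1.07, 0.591 and 0.294 CPM with LPS. It fell by 5.10 ± 0.68 on the log2 scale (adjusted p = 1.44e-05), with all LPS libraries near 0, and its log2 fold change was -5.93 without LPS replicate 1. The sign of this list's median turned to positive with the replicate block and without untreated replicate 3. In the fit of all 36 libraries 1 gene of the family was called higher and 3 lower. Of 8 tested Notch pathway genes 2 rose and 1 fell, against 1 and 0 with all 36 libraries, where Rbpj lost its call. Dll4, the Notch ligand that shapes helper T cells, had 1 count among the untreated libraries and stood at 216, 141 and 154 CPM with LPS, 3071-fold (counting interval 551 to 121333) higher by pooled counts and 4051-fold by group means. Rbpj, the DNA-binding partner of Notch, rose by 1.77 ± 0.44 (adjusted p = 0.0066).

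Most interferon target genes rose. Of 36 tested interferon-stimulated effectors 29 rose and 0 fell, with a median log2 fold change of 4.05, and of 17 tested GBP and IRG GTPases 14 rose and 0 fell, with 3.47. Ifih1, the RNA sensor MDA5, was at 7.72, 17.4 and 23.9 CPM untreated and 207, 204 and 202 CPM with LPS. Ddx58, the RNA sensor RIG-I, was at 3.43, 3.41 and 2.57 CPM untreated and 279, 129 and 94.6 CPM with LPS. Isg15, a ubiquitin-like antiviral modifier, was at 2.57, 0.252 and 1.36 CPM untreated and 86.2, 24.2 and 32.9 CPM with LPS. The groups did not overlap for any of these genes, and the LPS libraries of Ifih1 lay closest together. Ifih1 rose by 3.59 ± 0.48 (adjusted p = 1.22e-05), Ddx58 by 5.76 ± 0.75 (adjusted p = 9.06e-06) and Isg15 by 5.55 ± 0.82 (adjusted p = 3.8e-05). Without LPS replicate 1 Ddx58 stood at 5.16 and Isg15 at 4.79, and Isg15 stood at 4.82 without untreated replicate 2. Ifit2, which binds viral RNA, rose by 4.71 ± 0.68, Herc6, a ligase for ISG15, by 3.85 ± 0.54, and Oas1a, an activator of RNase L, by 4.18 ± 0.61, or 5.15 without untreated replicate 3.

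Among the GTPases that act on vacuoles of intracellular pathogens, Gbp2 was at 1.72, 2.15 and 9.67 CPM untreated and 284, 211 and 258 CPM with LPS. It rose by 5.66 ± 0.67 (adjusted p = 3.04e-06), and by 6.93 without untreated replicate 3. Gbp3 rose by 4.82 ± 0.68, or 5.45 without untreated replicate 2, and Gbp7 by 6.08 ± 0.97. Tgtp1, an IRG GTPase with a near-identical copy, had no count untreated and 128, 34.3 and 16.2 CPM with LPS, at least 52.3-fold higher (adjusted p = 1.68e-05). GBP genes resemble each other, so their values may be shared between copies. 8 of the 36 effectors and 7 of the 17 GTPases were called higher with all 36 libraries.

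The ISRE letters were found before 8.18% of all genes with a promoter, before 8% of those tested, before 12.5% of those that rose and before 8.08% of those that fell. They stood before 12 of 26 effectors (46.2%) and 9 of 10 GTPases (90%) with a promoter in the table. The GAS letters stood before 8.13% of all genes, 7.15% of those tested, 8.58% of those that rose and 7.62% of those that fell. Among the effectors 5 of 26 (19.2%) had them, and among the GTPases 6 of 10 (60%). The following 120-base stretches before the start, shown because they carry these letters close to the start of genes that rose, have the ISRE letters on either strand in capitals. In Tnip1 above and in Isg15, Oas1a and Apol7c here, matches overlap and form 1 run of capitals.
Isg15 (chr4:156200819-156200938, strand -): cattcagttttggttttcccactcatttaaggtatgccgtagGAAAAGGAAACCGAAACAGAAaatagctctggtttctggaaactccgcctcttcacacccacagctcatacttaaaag
Oas1a (chr5:120907526-120907645, strand -): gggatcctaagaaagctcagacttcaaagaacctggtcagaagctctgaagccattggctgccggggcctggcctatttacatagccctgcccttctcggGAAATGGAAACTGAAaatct
Gbp2 (chr3:142620543-142620662, strand +): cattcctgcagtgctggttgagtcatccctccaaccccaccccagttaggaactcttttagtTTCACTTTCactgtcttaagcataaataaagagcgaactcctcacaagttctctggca
Apol7c (chr15:77533316-77533435, strand -): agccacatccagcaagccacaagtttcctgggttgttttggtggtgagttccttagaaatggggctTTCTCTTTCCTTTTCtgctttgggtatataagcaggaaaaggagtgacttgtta

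The factors that carry interferon signals moved unevenly. Of 26 tested genes for interferon regulatory factors, STAT and SOCS proteins 11 rose and 3 fell, with a median of 1.04. Irf7, the amplifier of interferon alpha, was at 24, 7.57 and 21.0 CPM untreated and 1205, 528 and 568 CPM with LPS, a rise of 5.49 ± 0.68 (adjusted p = 5.76e-06). Irf9, a part of the complex that binds the ISRE, rose by 2.30 ± 0.50. The kinase gene Jak2 rose by 3.80 ± 0.51, and Socs3, the feedback inhibitor of interleukin 6 signalling, by 4.04 ± 0.74. The receptor subunit gene Ifnar2 went the other way, from 443, 446 and 299 CPM to 123, 105 and 92.0 CPM, and fell by 1.89 ± 0.35 on the log2 scale (adjusted p = 0.000416). 0 of the 26 were called with all 36 libraries.

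Genes of migration rose in part. Of 32 tested genes for migration, adhesion and cytoskeleton 15 rose and 2 fell, with a median of 1.20. Ccr7, the receptor that leads mature dendritic cells to lymph nodes, was at 39.5, 40.9 and 82.2 CPM untreated and 4694, 2018 and 1568 CPM with LPS. Fscn1, the actin-bundling protein of their veils and dendrites, was at 154, 65.5 and 278 CPM untreated and 2366, 1421 and 1828 CPM with LPS. For both genes the LPS libraries were all above the untreated ones. Ccr7 rose by 5.66 ± 0.64 (adjusted p = 2.04e-06), and by 5.03 without LPS replicate 1, which was its highest library. Fscn1 rose by 3.50 ± 0.46 (adjusted p = 1.04e-05), and by 4.10 without untreated replicate 3. Swap70, which links membrane to actin, rose by 3.76 ± 0.50, the membrane motor gene Myo1g by 4.08 ± 0.64, and the actin regulators Marcks and Marcksl1 by 3.46 ± 0.49 and 3.72 ± 0.43. The guidance receptor gene Plxnd1 rose by 3.20 ± 0.47, or 3.88 without untreated replicate 1.

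Receptors for attractants moved both ways. Of 20 tested, 4 rose, with Ccr7 and Xcr1 among them, and 3 fell, with a median of 0.29. Ccr2, which guides monocytes and precursors, was at 97.8, 52.5 and 152 CPM untreated and 16.4, 23.6 and 8.52 CPM with LPS, and fell by 2.66 ± 0.55 on the log2 scale (adjusted p = 0.00139). C5ar1, the receptor for the complement peptide C5a, fell by 2.82 ± 0.44. S1pr1, the receptor for the lipid that leads cells out of tissue, stood at -5.64 ± 1.30 on the log2 scale (adjusted p = 0.00368), and at -4.40 without untreated replicate 3. With all 36 libraries 0 of these receptors were called higher and 1 lower, and 0 genes of the migration list were called higher. Without LPS replicate 1 or untreated replicate 2, 1 attractant receptor was called higher.

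Antigen presentation genes of both MHC classes rose in part. For class I, 10 of 22 tested genes rose and 0 fell, with a median of 1.12. Tap1, the peptide transporter of the endoplasmic reticulum, was at 186, 148 and 121 CPM untreated and 592, 478 and 402 CPM with LPS, and rose by 1.70 ± 0.44 (adjusted p = 0.0085). Nlrc5, the transactivator of class I genes, rose by 2.71 ± 0.56, or 3.39 without untreated replicate 1, and the non-classical gene H2-T22 by 2.08 ± 0.45. H2-Q7 rose by 3.07 ± 0.53, or 3.69 without untreated replicate 2, and its reads may be shared with other H2-Q genes. For class II, 7 of 17 tested genes rose and 2 fell, with a median of 0.46. H2-Ab1, the beta chain of I-A, was at 426, 903 and 727 CPM untreated and 11396, 4379 and 2943 CPM with LPS. H2-Eb1, the beta chain of I-E, was at 172, 361 and 358 CPM untreated and 6439, 1593 and 1456 CPM with LPS. LPS replicate 1 was the highest library for both, and no LPS library reached down to the untreated ones. H2-Ab1 rose by 3.19 ± 0.51 (adjusted p = 0.000101), or 2.41 without LPS replicate 1, and H2-Eb1 by 3.41 ± 0.57 (adjusted p = 0.000169), or 2.35. Cd1d1, which presents lipids to NKT cells, rose by 2.72 ± 0.55.

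H2-DMa and Ctsl, other members of the class II pathway, fell. H2-DMa and H2-DMb2 encode chains of the chaperone that loads peptides. H2-DMa was at 75.5, 302 and 212 CPM untreated and 65.9, 47.2 and 52.9 CPM with LPS, and fell by 1.83 ± 0.45 on the log2 scale (adjusted p = 0.00545), while H2-DMb2 rose by 2.10 ± 0.44. Ctsl, a protease of the endosome, was at 72.1, 428 and 399 CPM untreated and 27.5, 24.2 and 34.7 CPM with LPS. It fell by 3.38 ± 0.45 (adjusted p = 1.22e-05), with all LPS libraries below all untreated ones. 1 class I and 2 class II genes were called higher with all 36 libraries, and without LPS replicate 3 there were 6 class I genes.

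Among 31 tested uptake, scavenger and lectin receptors 7 rose and 6 fell, with a median of -0.22 (-0.45 when absent genes take their bound) that turned to positive without untreated replicate 3. Marco, a scavenger receptor for bacteria and particles, had no count in the untreated libraries and stood at 383, 88.0 and 62.9 CPM with LPS, at least 157-fold higher (adjusted p = 1.44e-05). LPS replicate 1 held the highest level. The lectin gene Clec4a3 rose by 2.80 ± 0.51 and Clec4a1 by 4.86 ± 0.88, which was 3.27 without LPS replicate 1 and 7.10 without untreated replicate 3. Fcgr3, a low-affinity receptor for immunoglobulin G, was at 5.15, 11.9 and 31.4 CPM untreated and 0.0891, 0 and 0 CPM with LPS, 320.0-fold (counting interval 57.0 to 12682) lower by pooled counts and 544-fold by group means. Scarb1, a receptor for lipoproteins and dying cells, fell by 1.88 ± 0.39 on the log2 scale (adjusted p = 0.00148). 3 of the 31 were called higher and 2 lower with all 36 libraries, and without LPS replicate 3 there were 3 called lower.

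Metabolic genes moved in opposite directions by pathway. Of 24 tested genes for immunometabolism and lipid mediators 10 rose and 3 fell, with a median of 1.27 (1.04 when absent genes take their bound). Acod1, the enzyme that makes the antimicrobial metabolite itaconate, was at 6.01, 0 and 0.151 CPM untreated and 2871, 1847 and 1174 CPM with LPS. It rose by 11.28 ± 1.29 (adjusted p = 2.55e-06), and by 14.41, 10.10 or 10.32 without untreated replicate 1, 2 or 3. Pfkfb3, an activator of glycolysis, rose by 4.10 ± 0.50, and Slc7a11, the cystine importer, by 3.94 ± 0.53. Slc2a6, a lysosomal hexose transporter, rose by 3.70 ± 0.58, or 2.83 without LPS replicate 1. Nos2, the inducible nitric oxide synthase, had no count untreated and 0.267, 0.591 and 0 CPM with LPS, at or under 3 counts in each library. Ptgs2, the inducible cyclooxygenase, rose by 2.49 ± 0.76 (adjusted p = 0.0236). That call was lost without LPS replicate 2 (log2 fold change 1.51, adjusted p = 0.199), without untreated replicate 1 (2.14, 0.0757) and without untreated replicate 2 (2.23, 0.0993), and it stood at 3.53 without untreated replicate 3. Alox5ap, the partner of the leukotriene-making lipoxygenase, was at 450.4, 615 and 449.9 CPM untreated and 43.5, 46.7 and 36.7 CPM with LPS and fell by 3.58 ± 0.42 on the log2 scale (adjusted p = 2.55e-06). The LPS libraries of Alox5ap were all far below the untreated ones. 5 of the 24 were called higher and 1 lower with all 36 libraries.

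Some enzymes of cholesterol synthesis rose. Of 29 tested genes for cholesterol and fatty acid synthesis 10 rose and 2 fell, with a median of 0.89, and in cDC2 1 rose and 1 fell. Hmgcs1, an early enzyme of the sterol pathway, was at 102, 91.9 and 98.0 CPM untreated and 687, 722 and 451 CPM with LPS. Its LPS libraries were all above the untreated ones. Hmgcs1 rose by 2.67 ± 0.48 (adjusted p = 0.000307). Idi1, which makes the building block of sterols, rose by 3.38 ± 0.54, and Cyp51, a demethylase of lanosterol, by 1.62 ± 0.34. The count of the list was 2 higher with all 36 libraries, 5 without LPS replicate 2 and 4 without untreated replicate 2. For none of these 3 genes was the difference between cDC1 and cDC2 called (adjusted p = 0.113 for Hmgcs1, 0.337 for Idi1 and 0.191 for Cyp51).

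Genes for handling of lipid that is taken up fell instead. Of 24 tested LXR and PPAR lipid handling genes 1 rose and 13 fell, with a median of -1.5 (-1.28 when absent genes take their bound). Plin2, the coat of lipid droplets, was at 197, 414 and 241 CPM untreated and 32.3, 21.9 and 35.5 CPM with LPS. Apoe, the lipid carrier of macrophages, was at 707, 1727 and 1256 CPM untreated and 179.8, 88.0 and 65.2 CPM with LPS. Trem2, a lipid-sensing receptor, was at 33.5, 159.9 and 74.5 CPM untreated and 2.58, 3.54 and 0.881 CPM with LPS. No library of one group overlapped with the other for these genes. Plin2 fell by 3.24 ± 0.37 on the log2 scale (adjusted p = 2.35e-06), Apoe by 3.47 ± 0.62 (adjusted p = 0.00032) and Trem2 by 5.31 ± 0.61 (adjusted p = 2.2e-06), which has a log2 fold change of -4.60 without untreated replicate 2. Lpl, which frees fatty acids from lipoproteins, fell by 3.20 ± 0.44, and Pltp, which transfers phospholipids, by 3.91 ± 0.74. Fabp4, a fatty acid carrier, went from 0.858, 9.59 and 9.06 CPM to no count, at least 6.68-fold lower. Apoe and Trem2 are also known from macrophages, whose marker sum fell in the same libraries. In bulk libraries fewer cells of a type and less RNA per cell cannot be told apart. 1 of the 13 was called with all 36 libraries.

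Lysosomal genes fell in part. Of 30 tested genes 0 rose and 11 fell, with a median of -0.83. Ctsd and Ctsb, the cathepsins D and B, were among the abundant transcripts of the untreated cells. Ctsd was at 1693, 4306 and 2886 CPM untreated and 221, 225 and 317 CPM with LPS. Ctsb was at 3579, 4738 and 3983 CPM untreated and 451, 422 and 642 CPM with LPS. All LPS libraries were below all untreated ones. Ctsd fell by 3.54 ± 0.45 on the log2 scale (adjusted p = 6.46e-06) and Ctsb by 3.02 ± 0.45 (adjusted p = 3.9e-05). Psap, the precursor of the saposins that help to degrade glycolipids, fell by 1.78 ± 0.36 from 15182 ± 2231 to 4413 ± 965 CPM, and the galactosidase gene Glb1 by 2.06 ± 0.39. The proton pump subunit gene Atp6v0d2 had a log2 fold change of -5.44 ± 0.86, and of -7.23 without LPS replicate 1. Ctsc, the protease that activates granzymes, had 0.47 ± 0.31 and was not called. 2 of the 30 were called lower with all 36 libraries. In cDC2 with LPS 3 were called higher and 6 lower. With LPS and PGPC against PGPC in cDC1 5 were called higher and 5 lower, so the one-way fall did not repeat there.

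**Figure D3:**
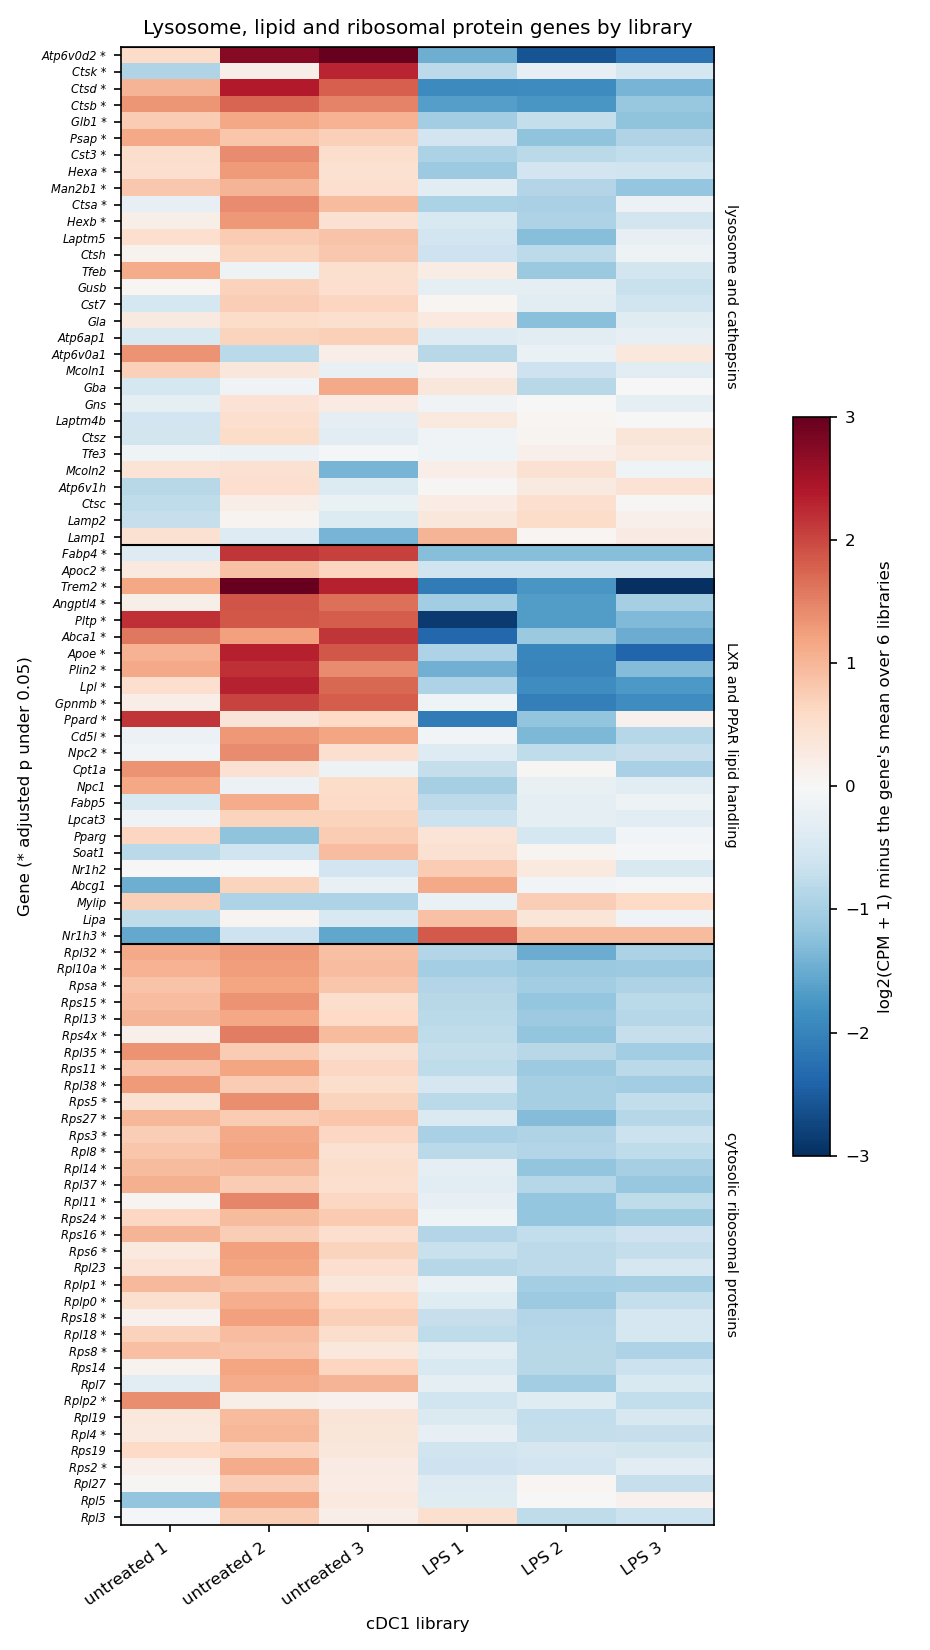
Each row is a tested gene of the lysosome, lipid handling or ribosomal protein list and each column a cDC1 library. Colour is log2(CPM + 1) minus the gene's mean over the 6 libraries (red above, blue below, limited to 3 in either direction), and a star marks adjusted p under 0.05. Most starred rows are red in all untreated and blue in all LPS libraries, and Nr1h3 is the starred row of the lipid list with the opposite colours.

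Transcripts for cytosolic ribosomal proteins fell together by a moderate amount. Of 35 tested 0 rose and 27 fell, with a median log2 fold change of -1.51. Rpsa was at 607, 765 and 594 CPM untreated and 181, 161 and 176 CPM with LPS. Rpl10a was at 244, 283 and 226 CPM untreated and 57.7, 54.3 and 54.9 CPM with LPS. Within each group the libraries lay close together and the groups stood apart. Rpsa fell by 1.92 ± 0.36 on the log2 scale (adjusted p = 0.000449) and Rpl10a by 2.17 ± 0.42 (adjusted p = 0.000797). Rpl32 fell by 2.2 ± 0.49 and Rpl13 by 1.86 ± 0.42. The share of all counts taken by ribosomal protein genes, which no scaling factor enters, was 1.63 ± 0.775% untreated and 0.924 ± 0.152% with LPS (exact permutation test, two-sided p = 0.3). All counts include those of ribosomal RNA, 49.5 ± 16.3% untreated and 20.1 ± 5.93% with LPS, so this share depends on them. The groups overlapped through untreated replicate 1, which had 0.857% with 67.9% ribosomal RNA. With ribosomal RNA genes (CT010467.1 included) and mitochondrial genes left out, 21 of the 35 were called lower and the median was -1.38. The count was 14 without LPS replicate 2, 16 without LPS replicate 3, 15 without untreated replicate 2 and 0 with all 36 libraries. In cDC2 with LPS 0 were called lower, but the difference between the responses of cDC1 and cDC2 was called for only 1 of the 35. With LPS and PGPC against PGPC in cDC1 5 were called lower.

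Irf8, Batf3 and Id2, genes of the factors that cDC1 depend on, fell with LPS alone, as did Flt3. Irf8 was at 1329, 808 and 559.9 CPM untreated and 322, 223 and 169 CPM with LPS. Flt3, the receptor for the growth factor of these cultures, was at 474, 272 and 308 CPM untreated and 109, 105 and 113 CPM with LPS. The groups did not overlap for either gene. Irf8 fell by 1.92 ± 0.44 on the log2 scale (adjusted p = 0.00304) and Flt3 by 1.69 ± 0.37 (adjusted p = 0.00222). Both calls were lost with all 36 libraries and in the test against a log2 fold change of 1. Batf3 was at 41.2, 38.8 and 23.1 CPM untreated and 7.13, 6.5 and 8.23 CPM with LPS and fell by 2.22 ± 0.65 (adjusted p = 0.0194). Id2 was at 239, 323 and 184 CPM untreated and 59.8, 92.7 and 111 CPM with LPS and fell by 1.5 ± 0.50 (adjusted p = 0.0367). With LPS and PGPC against PGPC none of Irf8, Batf3 and Id2 was called, but the difference between the LPS effects was not called either. The plasmacytoid marker sum without Irf7 fell in the same libraries. As these are bulk libraries, fewer cells of a type and less RNA per cell cannot be told apart. The calls of Batf3 and Id2 rested on single libraries. Without LPS replicate 1, LPS replicate 2, untreated replicate 1 or untreated replicate 2 the adjusted p of Batf3 was 0.0707, 0.0637, 0.0501 or 0.0553, and that of Id2 was 0.149, 0.0815, 0.0618 or 0.129.

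Surface markers of cDC1 moved in different directions. Cd24a, a surface glycoprotein, was at 73.8, 141 and 104 CPM untreated and 24.3, 33.1 and 42.0 CPM with LPS and fell by 1.69 ± 0.46 on the log2 scale (adjusted p = 0.0126), a call lost without LPS replicate 1 (adjusted p = 0.0697), without untreated replicate 2 (0.0632) and with all 36 libraries. Btla, an inhibitory receptor, was at 12, 12.4 and 33.7 CPM untreated and 186, 119.9 and 85.8 CPM with LPS and rose by 2.72 ± 0.50 (adjusted p = 0.000439), or by 3.41 without untreated replicate 3. Clec9a, the receptor for dead cells, was at 24, 14.4 and 72.4 CPM untreated and 21.8, 5.31 and 2.35 CPM with LPS. The groups overlapped and it was not called (log2 fold change -1.85 ± 0.88, adjusted p = 0.153). Clec9a was called without LPS replicate 1, its highest LPS library (-3.34, adjusted p = 0.0497), and in the fit without the filter on low counts, and it stood at -0.88 without untreated replicate 3. Xcr1, the chemokine receptor that marks cDC1, was at 0, 0.379 and 0.151 CPM untreated and 26.5, 11.2 and 2.35 CPM with LPS, and rose by 5.73 ± 1.63 (adjusted p = 0.0163). That call was lost without LPS replicate 1 (log2 fold change 4.74, adjusted p = 0.0981), without untreated replicate 2 (6.57, 0.0504) and without untreated replicate 3 (5.44, 0.0649). Of the 22 tested cDC1 markers 3 rose and 5 fell, and the marker sum was 1947 to 2794 CPM untreated and 953 to 1481 CPM with LPS. The counts were 1 and 3 without LPS replicate 1, 3 and 3 without LPS replicate 2, 1 and 2 without untreated replicate 2, and 1 and 0 with all 36 libraries. Irf4, the factor of cDC2, fell by 1.67 ± 0.54 (adjusted p = 0.0311), a call lost without LPS replicate 1 (adjusted p = 0.104), LPS replicate 2 (0.099) or untreated replicate 3 (0.148). The cDC2 markers did not fall as a list, with 3 of 13 tested genes higher and 2 lower, Irf4 among the latter. The sum of 16 cDC2 markers was 645 to 859 CPM untreated and 1108 to 1613 CPM with LPS, without overlap. By mean Sirpa was its largest member, at 358 CPM untreated and 747 CPM with LPS, and Itgam went from 42.9 to 227 CPM. Other members went down, with Cd300a from 291 to 200 CPM. Clec10a went from 5.92 CPM and Cd209a from 2.07 CPM to no count, so the sum does not stand for all its members.

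Other transcription factors were mixed. Of 26 tested AP-1, EGR, KLF and ATF genes 4 rose and 6 fell, with a median of 0.29 (0.04 when absent genes take their bound). Among the AP-1 members Junb rose by 2.26 ± 0.41 (adjusted p = 0.00042), whereas Fos fell by 2.14 ± 0.48 (adjusted p = 0.00285) and Fosl2 by 2.55 ± 0.57 (adjusted p = 0.00262). Without LPS replicate 3, their highest LPS library, the log2 fold changes were -2.85 for Fos and -3.85 for Fosl2. For the list there were 0 called higher and 2 lower with all 36 libraries, 2 and 3 without LPS replicate 1, and 2 called higher without untreated replicate 2 or 3.

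Of 21 tested genes for MAP kinase feedback and RNA decay 9 rose and 3 fell. The phosphatase genes Dusp1, Dusp5 and Dusp16, which switch MAP kinases off, rose by 2.04 ± 0.46, 2.16 ± 0.41 and 2.94 ± 0.46. Gadd45b, a stress sensor upstream of p38, rose by 3.69 ± 0.48, or 2.81 without LPS replicate 1. Zfp36l2, an RNA-binding protein that promotes decay of AU-rich messages, was at 1704, 380.0 and 541 CPM untreated and 13.5, 59.1 and 93.1 CPM with LPS. It fell by 3.99 ± 0.75 on the log2 scale (adjusted p = 0.000595), without overlap, and its log2 fold change was -3.07 without untreated replicate 1 and -4.74 without LPS replicate 3. 2 of the list were called higher and 0 lower with all 36 libraries, without untreated replicate 2 there were 5 and 1, and without LPS replicate 2, LPS replicate 3 or untreated replicate 1 there was 1 called lower.

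Cell cycle genes fell in part, with 1 of 32 tested genes higher and 9 lower and a median of -0.37. Cdc20, an activator of the anaphase-promoting complex, was at 55.8, 36 and 26.0 CPM untreated and 4.72, 0.591 and 3.82 CPM with LPS and fell by 3.54 ± 0.63 on the log2 scale (adjusted p = 0.000281). Ccnb2, a mitotic cyclin, fell by 3.28 ± 0.79 (adjusted p = 0.00472). The exception was Ccnd2, a cyclin of the G1 phase and a known NF-kB target, at 18, 19.4 and 16.2 CPM untreated and 172, 132 and 97.2 CPM with LPS. It rose by 2.90 ± 0.41 (adjusted p = 2.47e-05). The count lower was 4 without LPS replicate 1, 5 without LPS replicate 2, 3 without untreated replicate 2 and 3 with all 36 libraries.

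Stress genes had 5 of 21 tested members higher and 2 lower in the stress and unfolded protein list, and 3 of 21 higher and 3 lower among NRF2 targets and iron genes. Among 26 tested genes of respiratory complex I 0 rose and 1 fell, with a median of -0.72. Xbp1, the factor of the unfolded protein response that supports dendritic cells, was at 404, 449 and 316 CPM untreated and 79.9, 103 and 103 CPM with LPS, and fell by 2.04 ± 0.37 on the log2 scale (adjusted p = 0.00037). Hmox1, the heme-degrading enzyme, fell by 2.03 ± 0.43, with a log2 fold change of -1.31 without untreated replicate 2, and Slc40a1, the iron exporter ferroportin, fell by 3.39 ± 0.52. Sqstm1, the autophagy receptor p62, was at 1248, 1168 and 1723 CPM untreated and 4679, 3353 and 5332 CPM with LPS and rose by 1.69 ± 0.42 (adjusted p = 0.00656). Txnrd1 and Gsr, reductases that keep thioredoxin and glutathione reduced, rose by 1.96 ± 0.50 and 1.64 ± 0.41. In the NRF2 and iron list 0 were called higher and 1 lower with all 36 libraries, where Sqstm1, Txnrd1, Gsr and Hmox1 lost their calls. The count higher in the stress list was 2 without LPS replicate 1, 3 without LPS replicate 2, 2 without LPS replicate 3, 1 without untreated replicate 1, 2 without untreated replicate 3 and 1 with all 36 libraries.

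The series is titled after inflammasomes, which cleave interleukin 1 beta and gasdermin D. Of 19 tested inflammasome and pyroptosis genes 4 rose and 0 fell, with a median of 0.82 (0.58 when absent genes take their bound). Nlrp3, the sensor, was at 6.86, 5.05 and 8.31 CPM untreated and 37.6, 66.1 and 69.9 CPM with LPS and rose by 3.10 ± 0.58 (adjusted p = 0.000484). Casp1, the protease, was at 1.72, 6.06 and 7.40 CPM untreated and 13.7, 10.6 and 5.58 CPM with LPS, and Gsdmd, the pore protein, was at 62.6, 94.8 and 78.6 CPM untreated and 180.2, 78.0 and 94.9 CPM with LPS. The groups overlapped for both, and neither was called (log2 fold changes 0.88 ± 0.59 and 0.58 ± 0.47, adjusted p = 0.32 and 0.425). The count higher was 1 with all 36 libraries and 1 without untreated replicate 2.

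Of 23 tested BCL2 family and apoptosis genes 11 rose and 0 fell, with a median of 1.51, and genes that protect and genes that kill were both among them. Bcl2l1, which encodes the survival protein BCL-xL, was at 17.2, 32.1 and 23 CPM untreated and 403, 163 and 151 CPM with LPS, and rose by 3.29 ± 0.43 (adjusted p = 1.03e-05), or 2.68 without LPS replicate 1. Cflar, an inhibitor of death receptor signals, rose by 3.05 ± 0.51, and Bcl2a1d by 5.59 ± 0.72, with reads that may be shared among the near-identical Bcl2a1 genes. The killers Bcl2l11 (BIM) and Pmaip1 (NOXA) rose by 2.18 ± 0.39 (adjusted p = 0.000348) and 2.98 ± 0.51 (adjusted p = 0.000187). 3 of the 23 were called with all 36 libraries.

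Markers of other cell types also moved. Of 19 tested monocyte and macrophage markers 2 rose and 12 fell, with a median of -2.29 (-2.27 when absent genes take their bound). C1qb, a complement chain, was at 66.1, 188 and 99.7 CPM untreated and 4.54, 7.09 and 3.82 CPM with LPS and fell by 4.57 ± 0.54 on the log2 scale (adjusted p = 2.8e-06). F13a1 went from 16.3, 5.81 and 16.2 CPM to no count, at least 13.1-fold lower. The markers that rose were Cd14 and Adgre1, the F4/80 antigen, which was at 19.7, 41.3 and 63.5 CPM untreated and 712, 521 and 264 CPM with LPS and rose by 3.56 ± 0.68 (adjusted p = 0.000646). Of 10 tested neutrophil and granulocyte precursor markers 0 rose and 6 fell, and their sum was 55.8 to 234 CPM untreated and 11.2 to 26.6 CPM with LPS, with Elane and Ly6g at no count. Ngp, a granule protein, went from 6.01, 44.4 and 17.8 CPM to no count. Of 14 tested plasmacytoid markers 1 rose and 6 fell, such as Siglech (-3.89) and Cd7 (-4.26), and their sum was 882 to 1099 CPM untreated and 798 to 1669 CPM with LPS. Irf7, which interferon induces, was the member that rose, and without it the sum was 858 to 1078 CPM untreated and 269.9 to 464 CPM with LPS, without overlap. Of 13 tested cDC2 markers 3 rose and 2 fell, of 8 B cell markers 1 rose and 1 fell, and of 9 mast cell and basophil markers 2 rose and 0 fell, while the 3 erythroid markers and the 1 T and NK cell marker tested were not called. The part of other cells in the lists of lower genes was not tested. The count of macrophage markers called lower was 4 with all 36 libraries, and that of neutrophil markers was 1 there and 3 without LPS replicate 2, LPS replicate 3 or untreated replicate 2. Siglech stood at -4.62 without LPS replicate 1 and -3.03 without untreated replicate 3.

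Some of the largest and most precise changes fell outside these lists. Shisa3 had no count untreated and stood at 305, 217 and 238 CPM with LPS, at least 223-fold higher (adjusted p = 3.19e-06). Itgb8, whose integrin activates TGF-beta, had no count untreated and 24.1, 100.4 and 46.1 CPM with LPS, at least 50.1-fold higher. Sp6, a Kruppel-related transcription factor, had 1 count untreated and 103, 100.4 and 138 CPM with LPS, 1730.3-fold (counting interval 310.2 to 68383) higher by pooled counts and 398-fold by group means. These genes were at or near 0 in every untreated library. Apol7c (chromosome 15, 77524852 to 77533316), known from cDC1 for damage to the membrane of phagosomes, was at 12, 11.2 and 39.9 CPM untreated and 10289, 3101 and 2086 CPM with LPS, and rose by 7.90 ± 0.88 (adjusted p = 2.04e-06). LPS replicate 1 was its highest library, and it rose by 6.91 without it and by 8.79 without untreated replicate 3. Fam49a, Tmem123, Ehd1 and Etv3 rose by 4.51 ± 0.41, 3.85 ± 0.38, 3.76 ± 0.41 and 4.11 ± 0.45. Etv3 is a transcriptional repressor of the ETS family, and Ehd1 works in endosome recycling.

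At the other end, Hpgd, the enzyme that inactivates prostaglandins, was at 148, 188 and 107 CPM untreated and 0.802, 1.77 and 0.881 CPM with LPS, and fell by 7.17 ± 0.66 on the log2 scale (adjusted p = 3.3e-07). Lgals3, the lectin galectin-3, was at 1233, 2330.2 and 1339 CPM untreated and 110.5, 122 and 147 CPM with LPS, and fell by 3.69 ± 0.41 (adjusted p = 1.77e-06). Trf, the iron carrier transferrin, fell by 4.59 ± 0.46, and Rnf128, the ubiquitin ligase GRAIL, by 4.48 ± 0.50. The groups did not overlap for these genes. Fkbp10, a collagen chaperone, went from 18, 55.3 and 70.9 CPM to no count with LPS, at least 49.4-fold lower (adjusted p = 4e-05).

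The response of cDC1 was set against that of cDC2, in which LPS changed 1062 genes (725 higher, 337 lower) in 3 libraries a side numbered 4 to 6. Of the genes called in cDC1, 623 were called in the same direction in cDC2, which is 27.9% of the cDC1 calls and 58.7% of the cDC2 calls, and 11 were called in the opposite direction. The responses themselves differed for 166 of 12463 genes (1.33%), with 42 higher in cDC1 and 124 lower. Without cDC2 LPS replicate 4 the split was 209 and 233, or 47.3% higher. That library stood apart, with a summed level of cDC2 markers of 4363 CPM against 1199 and 1675 CPM in the other two, and of macrophage markers of 9783 CPM against 4913 and 3764 CPM, and their part in the differences was not tested. With CT010467.1 among the genes left out, 169 differed, of which 39.6% were higher in place of 25.3%. Flt3 was at 14.4, 15.5 and 7.46 CPM in untreated and 42.4, 47.3 and 80.1 CPM in LPS-treated cDC2, so that it rose there by 2.04 ± 0.40 (adjusted p = 0.00137), while it fell in cDC1. The difference of the responses was -3.73 ± 0.55 on the log2 scale (adjusted p = 0.00103).

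Nrp1, a receptor for semaphorins, was at 64.3, 73.2 and 70.6 CPM untreated and 55.5, 36.6 and 35.3 CPM with LPS in cDC1, a log2 fold change of -0.70 ± 0.37 without a call. In cDC2 it was at 106, 116 and 104 CPM untreated and 4.60, 5.38 and 1.95 CPM with LPS, and the responses differed by 4.0 ± 0.58 (adjusted p = 0.00103). Bcl2l1 was at 68.7, 71.7 and 41.1 CPM in untreated and 69.5, 52.2 and 57.6 CPM in LPS-treated cDC2, so its rise in cDC1 had no counterpart there, and the difference was 3.35 ± 0.58 (adjusted p = 0.00521). Tnip3 (difference 3.87 ± 0.74) and Nsf, a motor of membrane fusion (2.59 ± 0.52), also responded more in cDC1. Adam8, a protease of leukocytes, differed by 3.34 ± 0.63, with log2 fold changes of 1.76 in cDC1 and -1.58 in cDC2. Ctsc and Cst7, a cystatin that controls it, responded in cDC2, where Cst7 was at 0.802, 0 and 0 CPM untreated and 14.3, 46.3 and 37.1 CPM with LPS. In cDC1 Cst7 was at 3.43, 9.72 and 8.91 CPM untreated and 5.61, 4.13 and 3.23 CPM with LPS, and the difference of the responses was -7.15 ± 1.08 for Cst7 and -2.92 ± 0.44 for Ctsc. Cst7 was at or under 3 counts in each untreated cDC2 library, so the size of its difference rests on few counts. The number of differences was 75 to 442 when 1 of the 12 libraries was left out. It was 75 and 92 without cDC1 LPS replicate 1 and 2, 442, 93 and 109 without cDC2 LPS replicate 4, 5 and 6, and 83, 77 and 98 without untreated cDC2 replicate 4, 5 and 6, and it was 6 with all 36 libraries. Untreated cDC2 replicate 6 held 243870 counts, and 3 counts there are 11.2 CPM, above its level of Flt3.

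**Figure D4:**
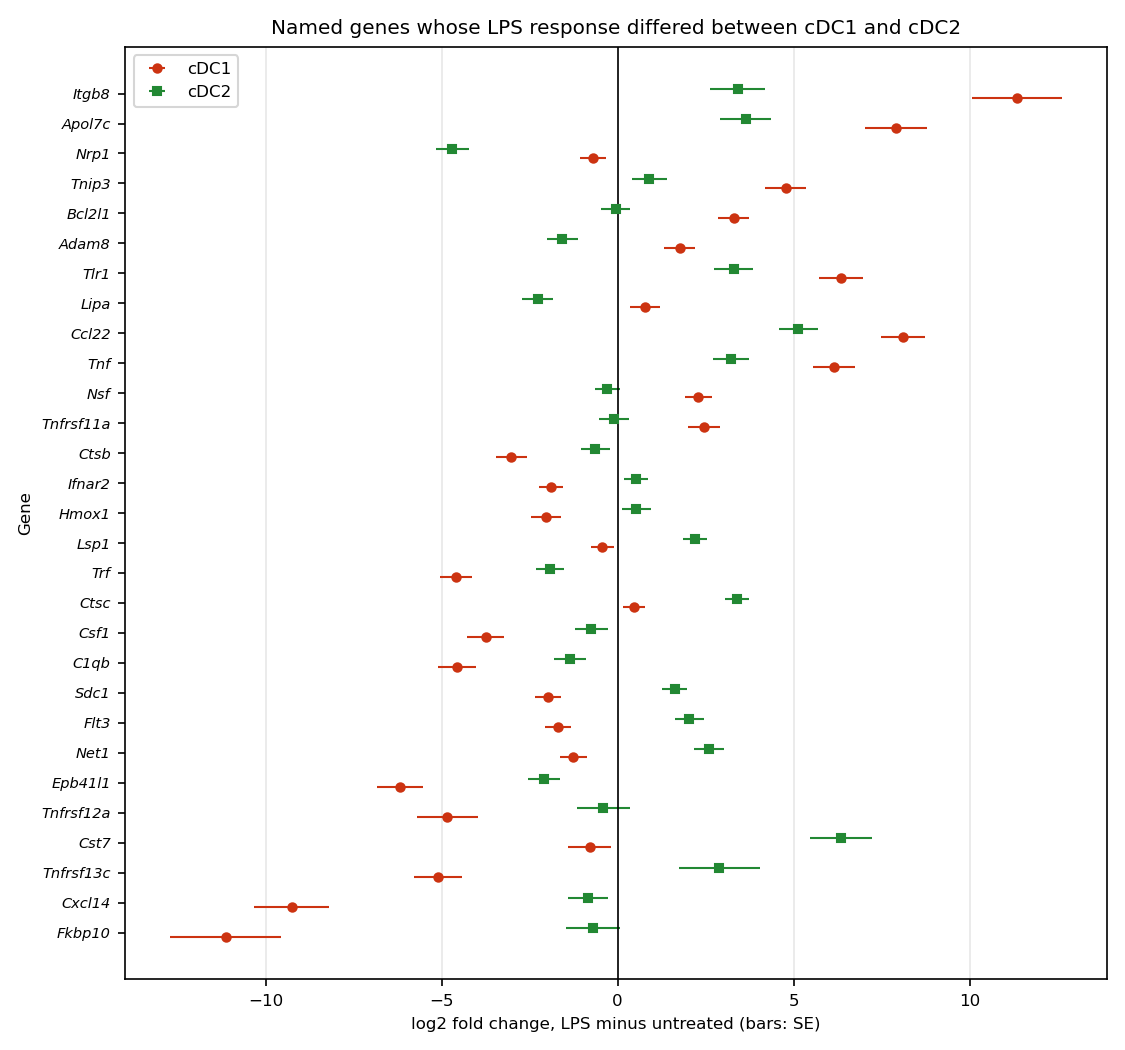
log2 fold change with LPS (x axis, bars are SE) in cDC1 (red circles) and cDC2 (green squares) for the 29 named genes whose responses differed, ordered by the difference. Fkbp10, Cxcl14 and Tnfrsf13c stand at the end where cDC1 fell more, and Itgb8, Apol7c and Nrp1 at the end where cDC1 responded more or fell less. Fitted values of genes without counts in 1 group depend on the prior count.

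A second set of cDC1 libraries allowed the same question without sharing any library. This comparison, chosen after seeing the data, was LPS with PGPC against PGPC alone, 3 libraries a side, so it measures LPS in cells that also received the phospholipid. It called 2044 of 12463 genes (16.4%), 1220 higher and 824 lower. Of the 2235 genes called for LPS alone, 921 were called there in the same direction, which is 41.2% of the first and 45.1% of the second set, and 14 in the opposite direction. The sign was the same for 87.8% of the 2235. The size of the LPS effect differed between the sets for 161 genes. Of the 201 genes followed by name 142 were called in both, Fosl2 in opposite directions. Many of the 201 were picked for their change with LPS alone. Their share may be raised by that choice, and the share over all calls was 41.2%. Ccr7 had 4.25 ± 0.60, Relb 4.39 ± 0.51, Fscn1 3.85 ± 0.47, Ctsl -3.87 ± 0.46 and C1qb -4.39 ± 0.51 with LPS and PGPC against PGPC, each called in the direction seen with LPS alone.

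Some genes did not repeat. Zfp36l2 was at 36.3, 54.3 and 39.9 CPM with PGPC and 9.23, 89.4 and 70.4 CPM with LPS and PGPC, without a call, and the 2 LPS effects differed (adjusted p = 0.0248). Each library with PGPC alone lay far below each untreated library. Adgre1 was at 153, 51.4 and 115 CPM with PGPC and 149.8, 104 and 67.0 CPM with both, and the effects differed (adjusted p = 0.0467). Dusp5 was at 5.41, 2.93 and 4.84 CPM with PGPC and 305, 423 and 652 CPM with both, a larger rise than with LPS alone (6.66 ± 0.50 against 2.16 ± 0.41, adjusted p of the difference = 0.000678). Fosl2 rose there by 1.79 ± 0.54, though it fell with LPS alone (adjusted p of the difference = 0.00884). For Irf8 the log2 fold change was -0.66 ± 0.42, for Batf3 0.74 ± 0.61 and for Id2 -0.18 ± 0.49, none of them called, and the difference between the effects was not called for Irf8 (adjusted p = 0.288), Batf3 (0.095) or Id2 (0.332). The number of calls was 1366 without replicate 3 of LPS with PGPC and 503 with all 36 libraries.

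**Figure D5:**
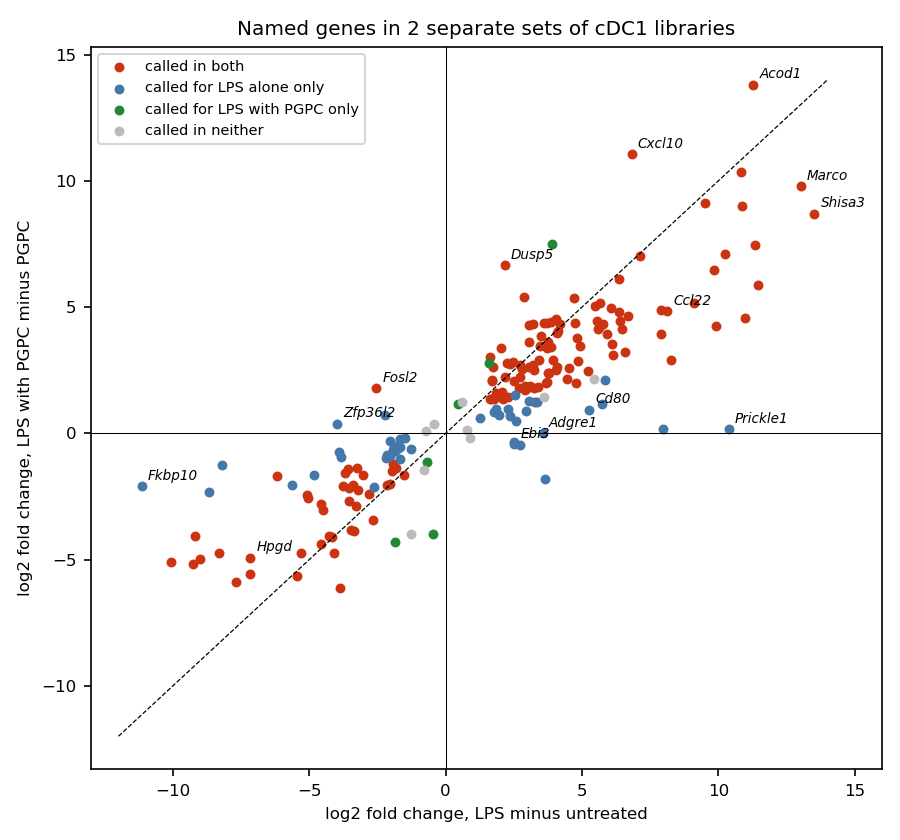
log2 fold change with LPS against untreated cells (x axis) and with LPS and PGPC against PGPC (y axis) for 201 genes, coloured by where they were called. The dashed line marks equal values. Of the 142 genes called in both (red), Fosl2 is the one with opposite signs. Among all 201 genes plotted, Zfp36l2, Adgre1, Ebi3 and Prickle1 lie near 0 on the y axis.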

How the data were processed

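RNA from FLT3L-induced mouse bone marrow cells, about 2000 cells a library, was amplified by Smart-Seq2 and sequenced in paired ends after Nextera XT preparation, per the labels' protocols. The deposited values are RSEM expected counts per gene symbol for 36 libraries on GRCm38, made by the authors after bcl2fastq 2.2, per the submitters' processing notes. The aligner, the annotation and the RSEM version are not given in the sources used, and no use of strand is stated, so overlapping and antisense genes may share counts. Of the non-zero values 21.0% are not whole, and all were rounded. The chemistry has no molecular identifiers, so counting intervals (95%, exact conditional) and the floor of 3 counts per library cover counting error only. Gene positions are from the GENCODE annotation of GRCm38, in which 52742 symbols matched, and promoter sequences from RefSeq.

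Genes with at least 10 counts in enough libraries of a group (edgeR's filterByExpr, minimum total 15) were kept, and library totals were scaled by TMM. One edgeR (4.0.16, with limma 3.58.1 in R 4.3.3) robust quasi-likelihood fit with 8 group means used 23 libraries, which are all those without alum except 1 cDC2 library with few counts. The common biological coefficient of variation was 0.545. P-values were adjusted by Benjamini and Hochberg over the 12463 tested genes, with 0.05 as the threshold. Single shares were compared by exact permutation tests.

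Members and lists were chosen with earlier results of these data known. Genes considered for naming were, among called genes that reach a mean of 5 CPM and do not overlap between groups, the 15 each way with the largest change and the 15 each way with the smallest adjusted p, up to 6 of each list with the smallest adjusted p, a panel of maturation, cytokine and cDC1 genes, and 10 each way for the difference from cDC2. Predicted gene models were left out. Some of these genes are not reported here, and 201 were carried through the alternatives. The alternatives were other sets of libraries (6, 12, 24 or 36), RLE factors, no filter, DESeq2 (1.42.0), a test against a log2 fold change of 1, ribosomal RNA and mitochondrial genes left out, a replicate block, and each library left out. Leaving out CT010467.1 as well, a plasmacytoid marker sum without Irf7, and the comparison of LPS with PGPC against PGPC, were chosen after seeing the data. The scripts were tested on simulated counts. Replicate numbers are shared by the groups, but same-numbered libraries did not deviate together, so the fit has no block.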

Additional observations from a re-analysis of the deposited data

Results flagged for a closer look

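For 29 genes the response to LPS differed between cDC1 and cDC2 by the test of the difference itself (edgeR's quasi-likelihood test, adjusted p under 0.05, 3 libraries in each of the 4 groups). Values here are the log2 fold change in cDC1 minus that in cDC2, with SE and adjusted p. Over all genes, 166 responses differed, and 75 to 442 did when 1 library was left out.

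The genes with the lower response in cDC1 include receptors and markers. Flt3 had -3.73 ± 0.55 (0.00103), and it fell in cDC1 and rose in cDC2. Sdc1, the syndecan CD138, had -3.60 ± 0.51 (0.00103), from -1.97 in cDC1 and 1.63 in cDC2. Net1, an exchange factor for RhoA, had -3.85 ± 0.57 (0.00103), from -1.26 and 2.60. Tnfrsf13c had -7.99 ± 1.32 (0.00369), Tnfrsf12a, the receptor for TWEAK, -4.44 ± 1.14 (0.0494), and Ifnar2 -2.42 ± 0.49 (0.0121). Lsp1, a leukocyte actin-binding protein, had -2.63 ± 0.47 (0.00668), and Epb41l1, a protein of the membrane skeleton, -4.07 ± 0.79 (0.0104). Among genes of macrophages and endosomes, C1qb had -3.22 ± 0.67 (0.0146), Csf1 -3.0 ± 0.68 (0.0212), Trf -2.67 ± 0.58 (0.0162), Hmox1 -2.57 ± 0.59 (0.0261), Ctsb -2.39 ± 0.59 (0.0413), Ctsc -2.92 ± 0.44 (0.00126) and Cst7 -7.15 ± 1.08 (0.00126). Cxcl14 had -8.42 ± 1.27 (0.00143) and Fkbp10 -10.44 ± 1.87 (0.00816), and the LPS-treated cDC1 libraries held no count of either, so these fitted sizes depend on the prior count. Cst7 was near 0 in untreated cDC2, so its fitted size also rests on few counts.

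Genes with the higher response in cDC1 include signals to other cells. Ccl22 had 2.98 ± 0.69 (0.0263), Tnf 2.93 ± 0.71 (0.0357) and Itgb8 7.93 ± 1.64 (0.0146), and Itgb8 had no count in untreated cDC1. Apol7c had 4.27 ± 0.97 (0.0233), Tnip3 3.87 ± 0.74 (0.00865), Tlr1 3.05 ± 0.73 (0.0324), Tnfrsf11a 2.55 ± 0.63 (0.0387) and Bcl2l1 3.35 ± 0.58 (0.00521). Adam8 had 3.34 ± 0.63 (0.0084) and Nsf 2.59 ± 0.52 (0.0121). Nrp1 had 4.0 ± 0.58 (0.00103), and it stood at -4.70 in cDC2. Lipa, the lysosomal acid lipase, had 3.03 ± 0.61 (0.0117), with 0.77 in cDC1 and -2.26 in cDC2.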

How the results depend on the processing

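The count of 2235 genes called for LPS in cDC1 was 2503, 2033 and 2197 with 6, 12 and 24 libraries in the fit, 597 with all 36, 2284 with RLE factors, 2280 without the filter, 2789 with DESeq2, 1018 against a log2 fold change of 1, and 2210 or 2275 with ribosomal RNA genes left out. It was 1435 to 1867 with 1 library left out. For the difference from cDC2 (166) the counts were 6 with 36 libraries, 425 without the filter, 428 with DESeq2, 48 against that fold, and 75 to 442 with 1 library left out. For LPS with PGPC against PGPC (2044) they were 503, 2256, 2515, 905, and 1366 to 1878. Over the process lists, 326 genes were called, with 86 in the fit of 36 libraries, 200 against that fold and 241 to 290 with 1 library left out.

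Same-numbered libraries correlated by -0.05, -0.04 and 0.01 in their deviations, so the numbers do not pair them. With a replicate block the counts were 2139 for LPS, 163 for the difference, 2026 for LPS with PGPC and 319 in the lists.

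Of the 186 called genes among the 201 followed by name, 74 kept their call in every alternative, 81 lost it with all 36 libraries alone, 27 against that fold and 19 when 1 library was left out, and none of the 186 changed sign. Among process lists the medians for MAP kinase feedback (without LPS replicate 3) and Notch (without untreated replicate 1) changed sign. So did those for the TNF family (replicate block, without untreated replicate 3) and for uptake receptors (without untreated replicate 3). The median of stress genes changed sign in 7 of 17 alternatives. Those of the B cell and erythroid marker lists changed sign in some alternatives. LPS replicate 2 was the shallowest library by total counts, at 1416289, where 3 counts are 1.77 CPM. After scaling untreated replicate 1 was smaller, and 3 counts there are 2.57 CPM. The LPS libraries ran to 9484976 counts, so lower genes are less precise in LPS replicate 2 and in untreated replicate 1.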
